A study of Rattus norvegicus with 3 samples.

Results

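Rpl3, Rpl3l, Eef1a1 and Eef1a2 are 2 pairs of paralogs of the translation machinery, of which skeletal muscle carries a form of its own beside the form found in most cells. They were taken as the genes whose probes bear a RefSeq accession of these rat symbols, 4 of the 15168 genes that could be named on the array, and were chosen for the opposite moves of Rpl3 and Rpl3l and for the change of Eef1a1 on these same arrays. Their values here are therefore a description and carry no test. Messenger RNA of rat calf muscle was measured on 3 one-colour (Cy3) Agilent arrays, each for 1 group, all from male rats of 12 weeks of a Wistar Honnover background. The groups are the soleus of untreated rats, the soleus 28 days after the left sciatic nerve was transected, and the plantaris of untreated rats. The soleus is a slow postural muscle and the plantaris a faster neighbour. The sources used here do not say how many animals stand behind each array, and with 1 array per group there is no replicate, no p-value and no spread between animals.

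RPL3 is a protein of the large ribosomal subunit whose loop reaches the peptidyl transferase centre, where peptide bonds form. RPL3L is its paralog in heart and skeletal muscle and takes the same place in the ribosome. eEF1A, bound to GTP, delivers aminoacyl-tRNA to the ribosome during elongation. Eef1a1 encodes the form of most cells, and Eef1a2 the form that replaces it after birth in mature muscle, heart and neurons. The mRNAs of ribosomal proteins and of eEF1A1 belong to the TOP class, whose 5′ ends carry a run of pyrimidines through which mTOR signalling controls their translation.

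The members move in 2 opposite directions together, so their promoters are set side by side. Each line holds the 250 bases before the annotated start, 5′ to 3′ on the gene's strand, from RefSeq on GRCr8, and all 4 genes matched an entry. The windows are chr7:113507991-113508240 (minus strand) for Rpl3, chr8:88225070-88225319 (minus strand) for Eef1a1, chr10:14258196-14258445 (plus strand) for Rpl3l and chr3:188652634-188652883 (minus strand) for Eef1a2. Capitals mark matches on either strand to the E-box CANNTG, which MyoD family factors bind, to the TATA box TATAAA and to TATATA. The last was added after the sequences were seen, and it overlaps the TATA box match in Rpl3.
Rpl3: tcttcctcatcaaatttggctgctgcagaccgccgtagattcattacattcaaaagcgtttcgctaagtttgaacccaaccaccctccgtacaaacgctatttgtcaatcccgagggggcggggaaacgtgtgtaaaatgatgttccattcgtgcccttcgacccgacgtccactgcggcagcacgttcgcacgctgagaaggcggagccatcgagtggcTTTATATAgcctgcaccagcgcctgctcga
Eef1a1: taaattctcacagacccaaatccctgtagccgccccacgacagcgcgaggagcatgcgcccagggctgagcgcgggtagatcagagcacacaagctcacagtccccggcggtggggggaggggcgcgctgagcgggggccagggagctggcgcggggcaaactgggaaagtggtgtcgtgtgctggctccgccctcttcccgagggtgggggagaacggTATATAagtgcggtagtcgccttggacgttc
Rpl3l: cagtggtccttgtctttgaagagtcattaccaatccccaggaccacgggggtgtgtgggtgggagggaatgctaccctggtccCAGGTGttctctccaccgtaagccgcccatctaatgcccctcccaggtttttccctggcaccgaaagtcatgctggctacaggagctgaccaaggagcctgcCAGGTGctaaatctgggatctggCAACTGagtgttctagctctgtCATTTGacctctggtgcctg
Eef1a2: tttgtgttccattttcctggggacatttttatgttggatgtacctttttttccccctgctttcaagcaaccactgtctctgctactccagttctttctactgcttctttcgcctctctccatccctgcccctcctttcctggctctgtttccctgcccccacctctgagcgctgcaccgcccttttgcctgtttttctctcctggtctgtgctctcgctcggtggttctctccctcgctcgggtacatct

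Rpl3 and Eef1a1, the forms of most cells, both held TATATA, at bases 28 to 23 and 31 to 26 before the start, and 5.45% of the 33469 promoters of this length hold it. Rpl3 also held TATAAA on the other strand (12.9% of promoters). Rpl3l held 4 E-boxes, a number that 3.2% of promoters reach, whereas the other 3 genes held none and 65.5% of promoters hold at least 1. No window held a MEF2 site (2.96% of promoters). No annotated start began with C and 4 more pyrimidines (2.63% of promoters), and with 5 bases of leeway either side, also added after the sequences were seen, Eef1a1 did (17% of promoters). These matches describe letters and say nothing about which factor binds.

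Each gene had 1 probe, spotted at 2 places on each array. All 24 spots were well above background, none bore an outlier flag and none was saturated. The probe sequences are not analysed here, so how far a probe of one paralog also binds the other was not tested, and the level of one probe is not set against that of another. Signals below are the scanner software's processed signals, background-subtracted intensities that are not yet scaled between arrays. A normalized signal is the mean over both spots divided by the array's 75th percentile of non-control spots, namely 903 in normal soleus, 1217 after denervation and 744 in plantaris.

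Rpl3 gave processed signals of 16457 and 16919 in normal soleus, 51507 and 52968 in denervated soleus, and 9734 and 9874 in plantaris. Its normalized signal was 18.5, 42.9 and 13.2 times the 75th percentile in that order. The denervated soleus was thus highest and the plantaris lowest, and no spot of one array reached those of the next. Rpl3l, its muscle form, gave 28141 and 27626 on normal soleus, 17014 and 16077 on denervated soleus, and 31809 and 30986 on plantaris. Normalized, these were 30.9, 13.6 and 42.2. The order of the arrays was the reverse of that of Rpl3, again without overlap of spots.

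Eef1a1 gave processed signals of 32207 and 31126 on normal soleus, 96021 and 87800 on denervated soleus, and 12576 and 12240 on plantaris. Its normalized signals of 35.1, 75.4 and 16.7 put the arrays in the same order as Rpl3. Eef1a2, the form of mature muscle, gave 35756 and 37156 on normal soleus, 22277 and 23465 on denervated soleus, and 36420 and 38891 on plantaris. Normalized, these were 40.4, 18.8 and 50.6, in the order seen for Rpl3l. Before scaling, the normal soleus and plantaris signals of Eef1a2 overlapped, so the order of those 2 arrays rests on the scaling, whereas the denervated soleus lay below both either way.

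**Figure D1:**
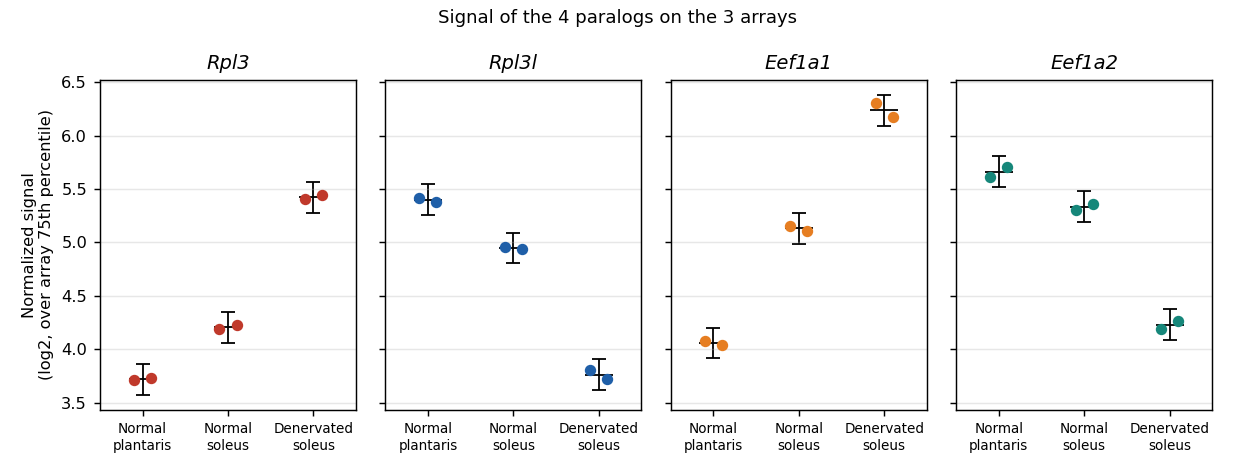
Normalized signal (log2, relative to the 75th percentile of each array) of each gene on the 3 arrays, plantaris at left, normal soleus in the middle and denervated soleus at right. Dots are the 2 spots of the gene's probe, the dash is their mean and the bar the scanner software's error of a spot (0.14 log2 units). Rpl3 and Eef1a1 climb from plantaris to denervated soleus and Rpl3l and Eef1a2 descend. Heights are comparable within a panel and not between panels.

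The comparison of denervated with normal soleus addresses the slow muscle 28 days after nerve transection. In log2 units, Rpl3 was higher by 1.22 ± 0.20 and Eef1a1 by 1.11 ± 0.20, or 2.32-fold and 2.15-fold, and Rpl3l stood at -1.18 ± 0.20 and Eef1a2 at -1.10 ± 0.20, or 2.27-fold and 2.15-fold lower. The error combines those of both arrays as the scanner software gives them, 10% of the signal for each spot here, and covers measurement only. The spots alone were closer, at 1.22 and 1.22 for Rpl3, -1.16 and -1.21 for Rpl3l, 1.15 and 1.07 for Eef1a1 and -1.11 and -1.09 for Eef1a2. All 4 members were thus at least 2-fold apart, a rule of size and not a test. So were 22.1% of the 11318 genes measured, 8.73% in the higher and 13.4% in the lower direction, with a median of 0.02 over all of them, and since the members were chosen on these values nothing is read from their count. Singly they were not extreme, since 5.73% of genes lay above Rpl3, 7.20% above Eef1a1, 10.6% below Rpl3l and 11.9% below Eef1a2. Rpl3l and Eef1a2 fell short of 2-fold with the authors' values (-0.94 and -0.86), under quantile normalization (-0.88 and -0.77) and with arrays centred on spike-in controls (-0.997 and -0.92).

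Within a pair, any factor common to a whole array cancels. The log ratio of Rpl3 to Rpl3l was higher by 2.40 ± 0.29 on the denervated than on the normal soleus array, or 5.28-fold, and that of Eef1a1 to Eef1a2 by 2.21 ± 0.29, or 4.62-fold. Over 8 ways of processing, these changes ran from 2.37 to 2.53 and from 2.17 to 2.37. Only quantile normalization and another background correction (normexp, below) could alter them. The other ways shift a whole array or leave the members' spots as they are, so the narrow range is no measure of stability there. The denervated soleus lay on a slide of its own, scanned separately, so that the effects of slide, scan and denervation cannot be told apart.

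The comparison of plantaris with normal soleus, arrays of 1 slide scanned together, sets the fast muscle against the slow one. Eef1a1 stood at -1.07 ± 0.20, or 2.10-fold lower in plantaris, and was the 1 member of 4 past 2-fold, where 11.8% of 11015 genes passed it, 6.11% lower and 5.71% higher. Rpl3 stood at -0.49 ± 0.20, Rpl3l at 0.45 ± 0.20 and Eef1a2 at 0.33 ± 0.20. The value of Eef1a2 was within 2 errors of 0 and turned to -0.04 with arrays centred on spike-in controls, where that of Rpl3l was 0.09. The log ratio of Eef1a1 to Eef1a2 was lower in plantaris by a change of -1.40 ± 0.29 and that of Rpl3 to Rpl3l by -0.94 ± 0.29, and over the same 8 ways of processing they ran from -1.42 to -1.35 and from -0.94 to -0.85.

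Set directly against the plantaris array, the denervated soleus lay farther from the fast muscle in these genes than the normal soleus did. Eef1a1 stood at 2.18 ± 0.20, or 4.52-fold higher in denervated soleus than in plantaris, and Rpl3 at 1.70 ± 0.20, or 3.26-fold higher. Rpl3l stood at -1.64 ± 0.20, or 3.11-fold lower, and Eef1a2 at -1.43 ± 0.20, or 2.69-fold lower. All 4 members passed 2-fold here, as did 28.7% of 11371 genes, 12.0% higher and 16.7% lower. The paralog log ratios differed by 3.34 ± 0.29 for Rpl3 to Rpl3l and by 3.61 ± 0.29 for Eef1a1 to Eef1a2. The 3 comparisons share arrays and are not independent of each other, and this one follows from the other 2. The denervated soleus also lay on another slide and scan than the plantaris. Effects of slide and scan thus cannot be told apart from those of muscle and denervation here. The value of Eef1a2 was -0.92 under quantile normalization and -0.88 with arrays centred on spike-in controls, short of 2-fold, and with both the other 3 members stayed past it.

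**Figure D2:**
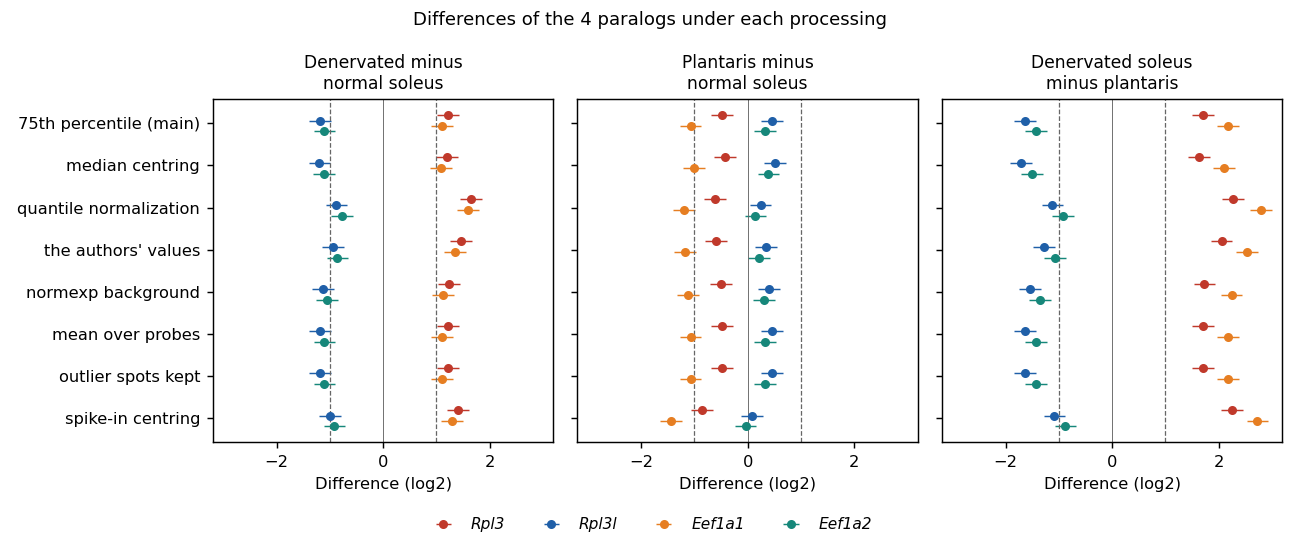
Difference (log2) of each gene in the 3 comparisons, with the scanner software's error as bars, under the processing used here (75th percentile) and 7 alternatives. Dashed lines mark 2-fold. Rpl3 and Eef1a1 lie on the opposite side of 0 from Rpl3l and Eef1a2 in every panel and setting, except Eef1a2 in plantaris with spike-in centring (-0.04).

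Rpl3, chosen for its move on these same arrays, lay outside the values of the other large subunit proteins. On the denervated array the other 43 measured proteins of the large subunit had a median of 0.02 (0.59 under quantile normalization), none was at least 2-fold apart, and they ran from -0.31 for Rplp1, a stalk protein, to 0.95 for Rpl15, with Rpl12 next at 0.41. Rpl3 lay 1.20 above that median and above all 43, and over the 8 ways of processing 1.06 to 1.22 above it. Ways that only shift a whole array cannot change such a distance. The errors of Rpl3 (1.22 ± 0.20) and Rpl15 (0.95 ± 0.21) overlapped, so their order is not resolved. Rpl3l lay 1.20 below the median and below all 43. In plantaris the 43 ran from -0.32 to 0.18 around a median of -0.06 (0.00 with median centring), and Rpl3 at -0.49 lay below all of them and Rpl3l at 0.45 above all of them. With errors of 0.20 each, Rpl3 overlapped with Rpl17 at -0.32 and Rpl3l with Rplp1 at 0.18. The values are from the brightest probe of each gene. A second probe of Rpl36a stood at -1.15 in denervated soleus and -0.80 in plantaris, the latter below Rpl3. The 30 small subunit proteins had medians of -0.02 and -0.17, the first above 0 in 5 alternatives (0.54 under quantile normalization), and none passed 2-fold. Their widest values were 0.51 for Rps12 and -0.33 for Rps2 in denervated soleus, and -0.56 for Rpsa, -0.52 for Rps27 and -0.43 for Rps6 in plantaris. Rpsa and Rps27 thus lay below Rpl3 in plantaris. Of 9 listed paralogs of ribosomal proteins 3 could be measured, and besides Rpl3l they were Rpl22l1, at 0.40 in denervated soleus and 0.33 in plantaris, and Rps4y2 at -0.13 and -0.14, a second probe of which stood at 0.43 in denervated soleus.

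Eef1a1, also chosen for its change on these arrays, and Eef1a2 were the outermost elongation factors in denervated soleus. The other 12 had a median of -0.09 in denervated soleus, which turned to 0.15 with the authors' values, and none passed 2-fold. Their widest values were 0.73 for Eif5a2, above background on 1 of the 2 arrays, 0.72 for Eef2k, the kinase that inhibits eEF2, and -0.45 for the GTPase gene Gtpbp1. The subunits of the factor that reloads eEF1A with GTP, Eef1b2, Eef1d and Eef1g, stood at 0.19, -0.01 and -0.32, and the translocase Eef2 at 0.18. Eef1a1 lay 1.20 above the median of the 12 and Eef1a2 lay -1.01 from it, each outside all 12 in all 8 ways of processing. Those that only shift a whole array could not change this. The error of Eef1a1 (1.11 ± 0.20) overlapped with those of Eif5a2 (0.73 ± 0.45) and Eef2k (0.72 ± 0.20), so their order is not resolved. In plantaris the 12 had a median of 0.15 (-0.22 with spike-in centring), with Eef2k at 0.86 and Eif5a2 at 0.50. Here Eef1a1 lay below all 12, the opposite end from denervated soleus. Eef1a2 lay among them, with 3 above it and 9 below, and up to 7 above it in other settings.

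**Figure D3:**
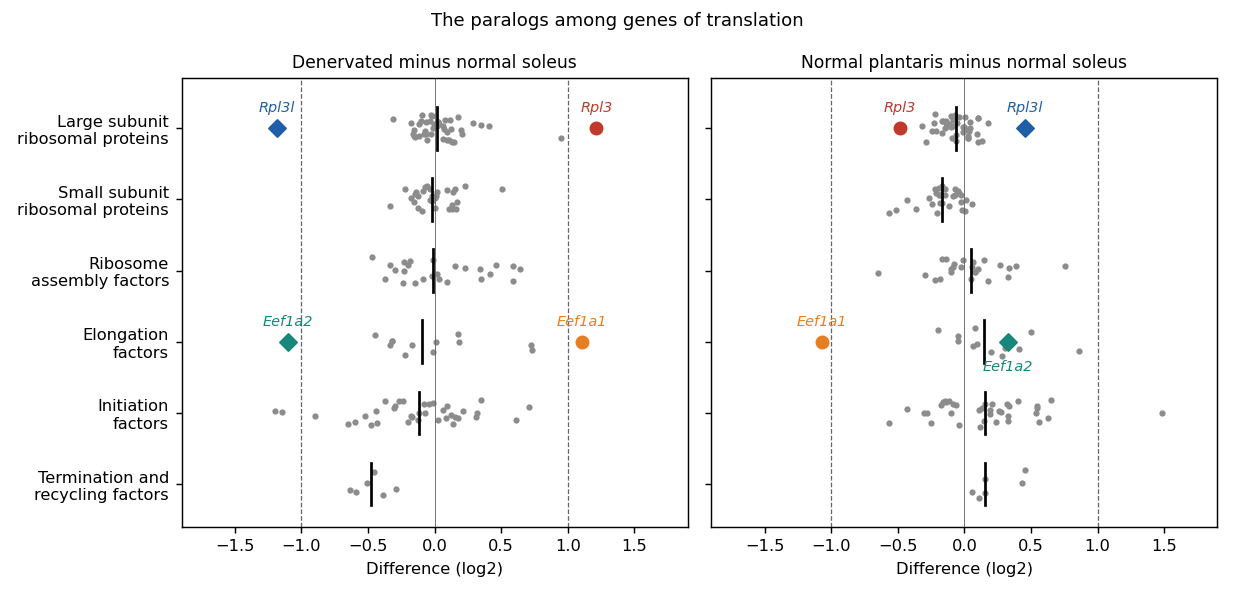
Difference (log2) in denervated soleus (left) and plantaris (right) from normal soleus for genes of 6 translation groups. Grey dots are the other genes, black lines their medians, dashed lines 2-fold, and Rpl3l is drawn on the line of large subunit proteins that Rpl3 belongs to. At left all 4 paralogs lie outside the other genes of their row. At right Rpl3, Rpl3l and Eef1a1 do and Eef1a2 at 0.33 does not. Errors are not drawn.

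Genes of other steps of translation were taken from lists of initiation and of termination factors. Of 37 initiation factor genes none was at least 2-fold higher and 2 were lower in denervated soleus (median -0.12, or 0.13 with the authors' values), namely Eif3j, a loosely bound eIF3 subunit, at -1.20 and Eif2b4, a subunit of the exchange factor eIF2B, at -1.15, followed by the cap-binding Eif4e at -0.90. In plantaris 1 of the 37 passed 2-fold, Eif4e3, a divergent member of the cap-binding family, at 1.48 (median 0.15, or -0.21 with spike-in centring), followed by Eif4a2 at 0.65 and Eif3j at 0.63. Between denervated soleus and plantaris Eif3j, Eif2b4 and Eif4e stood at -1.82, -1.34 and -1.23, and Pabpc1, the poly(A)-binding protein, at 1.05. The 6 genes of termination and recycling all lay below 0 in denervated soleus (median -0.48), with Abce1, which splits the ribosome, at -0.64, Eif2d at -0.59 and the release factor Etf1 at -0.51, and none reached 2-fold. In plantaris all 6 lay above 0 (median 0.15, or -0.21 with spike-in centring).

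Genes that make or modify the members' proteins were followed too. None of 25 ribosome assembly genes passed 2-fold in denervated soleus (median -0.01) or plantaris (median 0.05), both medians changing sign in other settings. Npm1, Rrp8 and the nucleolin gene Ncl stood at 0.64, 0.59 and 0.59 in denervated soleus, Rrp8 and Polr1a, the largest subunit of RNA polymerase I, at 0.76 and -0.65 in plantaris, and Grwd1, whose yeast relative escorts newly made RPL3, at 0.35 and -0.01. Of 4 measured methyltransferase genes acting on RPL3 or on elongation factors 1 passed 2-fold in denervated soleus, the eEF1A lysine methyltransferase Eef1akmt1 at 1.40. It stood at -0.10 in plantaris. Mettl18, which methylates RPL3, was at 0.49 and 0.50, Mettl13, which methylates eEF1A, at 0.37 and 0.16, and Eef2kmt, which methylates eEF2, at 0.32 and 0.37. None of 9 genes of the mTOR pathway, the S6 kinases and Myc passed 2-fold. In denervated soleus Tsc2 stood at -0.55, Rptor at -0.42 and Myc at 0.41, and in plantaris Rps6kb1 at 0.67 and Tsc1 at 0.63.

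For each member the 5 genes with the most like pattern were found among 9855 genes well above background on all 3 arrays, as the smallest distance in the plane of the differences of denervated soleus and plantaris from normal soleus, which share the normal soleus array. Rpl3l and Eef1a2 were themselves 0.15 log2 units apart and Rpl3 and Eef1a1 0.59, against 2.58 between Rpl3 and Rpl3l and 2.61 between Eef1a1 and Eef1a2. Nearest to Rpl3l were Uckl1, B3gnt4, Tmprss6, Entpd7 and Ube2b, a ubiquitin-conjugating enzyme, within 0.051, and nearest to Eef1a2 were Kcnh3, Gpr157, Slc10a5, Fam25a and Kbtbd11, within 0.041. Nearest to Rpl3 were the tetraspanin Cd151, Cd247, Arhgef2, Reep2 and Phgdh, the first enzyme of serine synthesis, within 0.086. Eef1a1 had the fewest neighbours. Its nearest were Iah1, Cilp, Prf1, Gsc and Pln, the calcium pump inhibitor phospholamban, within 0.157, and 64 genes (0.65%) lay within 0.5 log2 units of it. That number was 333 (3.38%) for Rpl3, 638 (6.47%) for Rpl3l and 819 (8.31%) for Eef1a2. The distances to the 5 nearest genes were all below the error of a member's difference (0.20). Which of the close genes rank nearest is therefore not resolved.

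**Figure D4:**
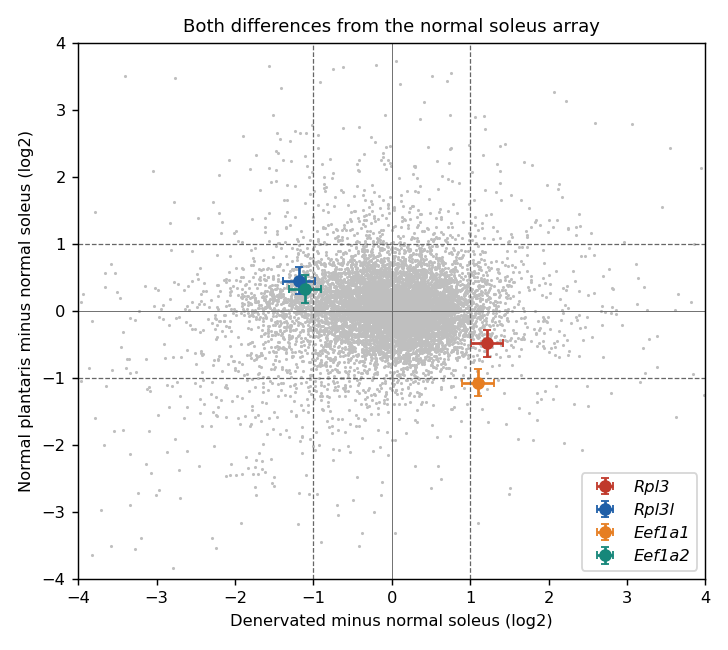
Difference of denervated soleus (horizontal) and plantaris (vertical) from normal soleus in log2 units for 9855 genes (grey), of which 50 lie outside the axes. Coloured points are the members with the scanner software's error, and dashed lines mark 2-fold. Rpl3l and Eef1a2 lie next to each other at upper left, and Rpl3 and Eef1a1 at lower right, where Eef1a1 is among 37 genes (0.38%) at least 2-fold higher in denervated soleus and at least 2-fold lower in plantaris.

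In whole muscle, fewer cells of a type and less RNA per cell cannot be told apart, and Rpl3 and Eef1a1 are made by non-muscle cells too. All 11 skeletal muscle markers with a named probe were well above background on the 3 arrays, and the slow and fast troponin T genes Tnnt1 and Tnnt3 stood at -1.81 and 3.11 in plantaris, in the direction of the labels. In denervated soleus 5 of the 11 muscle markers were at least 2-fold lower and 2 at least 2-fold higher (median -0.60). The widest were the myosin gene Myh1 at 4.43 and the actin gene Acta1 at -2.44, and the other higher marker was Myh4 at 1.30. The summed normalized signal of the 11 was 1538 on the denervated array, where Rpl3l and Eef1a2 were also lower, 2731 on normal soleus and 3511 on plantaris. On the denervated array 5 of 6 measured fat cell markers were at least 2-fold higher (median 2.54, Adipoq 3.65, Cidec 2.83), their summed normalized signal being 69.1 against 15.9 on normal soleus and 13.3 on plantaris. Lep was above background on no array. Of 10 fibroblast and tendon markers 2 were at least 2-fold higher there (median 0.88, Comp 2.77, Fmod 2.11), and their sum was 398, against 192 on normal soleus and 365 on plantaris. In plantaris 3 of the 10 were at least 2-fold higher and 4 lay below 0 (median 0.35, or -0.01 with spike-in centring). None of 10 macrophage markers passed 2-fold in either muscle, with medians of 0.29 in denervated soleus and -0.60 in plantaris and sums of 50.6, 53.3 and 34.5 on normal soleus, denervated soleus and plantaris. Of 6 endothelial markers 3 were at least 2-fold lower in denervated soleus and 1 in plantaris, of 7 smooth muscle and pericyte markers 1 was lower in denervated soleus, and of 8 Schwann cell markers 2 were higher and 3 lower there. In the same order of arrays, endothelial markers summed to 13.0, 7.05 and 10.5, smooth muscle and pericyte markers to 10.6, 7.57 and 8.25, Schwann cell markers to 7.05, 10.12 and 6.75, blood cell markers to 107, 109 and 78.6, and satellite cell markers to 0.98, 1.17 and 3.77, with Pax7 and Megf10 above background on no array. The satellite cell sum on plantaris rested on Cdh15 at 3.50, the other measured markers being Myf5 at 0.18 and Cxcr4 at -0.24. Of 6 lymphocyte markers 5 were above background on no array. The part of these cell types in the members' values was not tested.

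Scaling also moves with the comparisons. Of 10 spike-in control probes 8 were well above background on all arrays, and on the scale used here they stood at a mean of -0.19 in denervated soleus (from -0.39 to 0.23) and 0.36 in plantaris (from 0.27 to 0.56) against normal soleus. The median of all genes was 0.21 and -0.34 in these comparisons when arrays were centred on these controls, and 0.26 and -0.08 with the authors' values. Of the genes at least 2-fold apart in denervated against normal soleus 39.4% were higher, and this share was 58.6% with the authors' values, 53.8% with spike-in centring and 26.5% with normexp background. In plantaris it was 48.3%, or 21.3% with spike-in centring, and between denervated soleus and plantaris 41.8%, or 66.9%, 78.0% and 27.6% with those 3 settings.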

How the data were processed

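RNA of 3 groups was hybridised to 1 array each. The normal soleus array was placed in its group by its source label, since its title names no muscle. Per the file headers and the submitters' processing notes, Agilent Feature Extraction 10.10.1.1 read the scans, and the deposited processed signal is a linear intensity after background subtraction and detrending within each array. The value table that the authors deposited holds intensities as well, equal to the processed signal times a constant that differs by array (1.60, 1.41 and 1.80 on the normal soleus, denervated soleus and plantaris arrays). The sources used here do not say how the constants were set.

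Of 30367 probes 18005 received a gene symbol through their RefSeq accession (GRCr8 annotation, while the array was designed on an older assembly). Processed signals of the 58717 non-control spots were put on the log2 scale, and the 75th percentile of the array was subtracted. Spots with an outlier flag (467 to 569 per array) were left out, repeat spots averaged, and the brightest probe stood for a gene. A probe was taken as well above background if 50 percent or more of its spots were, which held for 64.2% to 67.0% of probes per array. Genes were compared if this held on at least 1 of both arrays, and a dim side was then taken at no less than the faintest such probe of its array. Repeat spots of probes as bright as the members differed with an SD of 0.050 to 0.065 log2 units. The number of arrays limits the precision.

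The members and gene lists were chosen with earlier results of these data known. Genes named are the members, up to 3 genes of each list with the largest absolute difference per comparison, any past 2-fold against its list's median, up to 2 per marker list, and 5 most like genes per member. Genes outside this rule (Rplp1, Cdh15, Myf5, Cxcr4, Rpl36a, the eEF1B subunits, Eef2, Grwd1, the methyltransferases, Tnnt1 and Tnnt3) were named for their role after their values were seen. Alternatives were median centring, quantile normalization, the authors' values, normexp background (limma 3.58.1 in R 4.3.3, offset 50, on the median spot signal, since the files hold no mean), a mean over probes, outlier spots kept, other filters, and centring on spike-in controls, added after seeing the data. The calling of genes at least 2-fold apart was tested on simulated data, and quantile normalization on a small example. The other procedures were not tested in this way. Python 3.11.15 was used. Protein sequences are not analysed here.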

Additional observations from a re-analysis of the deposited data

How the results depend on the processing

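With 1 array per group no replicate could be left out, and no paired analysis was possible because each group has 1 array. A value is said to move where it shifts by more than the scanner software's error (counts, by more than 1.5 times). All 42 recomputed paralog log ratios kept their direction and moved by less. Most of them were bound to, since only quantile normalization and normexp background could change a paralog log ratio. The other alternatives shift a whole array or leave the members' spots as they are. Of 84 recomputed differences of single members 25 moved, and the cause was not tested. The 84 include those from a mean over probes and from keeping outlier spots. Neither could move a member, since each has 1 probe and no flagged spot. For Rpl3, Rpl3l, Eef1a1 and Eef1a2 in that order, denervated minus normal soleus was 1.65, -0.88, 1.60 and -0.77 under quantile normalization and 1.46, -0.94, 1.35 and -0.86 with the authors' values. Plantaris minus normal soleus was -0.85, 0.086, -1.44 and -0.039 with spike-in centring, and 0.24 for Rpl3l under quantile normalization. Denervated soleus minus plantaris was 2.27, -1.12, 2.80 and -0.92 under quantile normalization, 2.06, -1.28, 2.53 and -1.08 with the authors' values, and 2.25, -1.08, 2.73 and -0.88 with spike-in centring. Of the other differences all stayed within the error.

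Of 54 recomputed counts of genes at least 2-fold apart 12 moved. In denervated against normal soleus 988 genes were higher and 1518 lower, and the higher count was 1568 with the authors' values and 367 with normexp background. In plantaris against normal soleus they were 629 and 673, then 310 and 286 with normexp background, 337 and 1248 with spike-in centring, and the lower count was 433 among genes well above background on both arrays, where fewer genes were tested. In denervated soleus against plantaris they were 1363 and 1899, then 2456 and 1213 with the authors' values, 3326 and 936 with spike-in centring, and the higher count was 506 with normexp background. The cause of these moves was not tested either. All spots of the members were well above background.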

Other observations

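Other muscle genes with a paralog used in other tissues were set beside the members. Of 9 such pairs on the list 8 were measured on both sides, and their pairing was written down after the values were seen. On the denervated against the normal soleus array the other form stood above its muscle partner in 7 of 8 pairs, by a median of 0.90 log2 units over the 8. The creatine kinases Ckb and Ckm stood at 0.43 and -1.48, a change of 1.91 ± 0.29 in their log ratio. The cytochrome oxidase subunits Cox8a and Cox8b differed by 1.06 and the enolases Eno1 and Eno3 by 1.01. The 1 pair the other way was the adenine nucleotide carriers, Slc25a5 at -1.64 and Slc25a4 at -1.06, and a second probe of Slc25a5 stood at 0.47. In plantaris against normal soleus the other form stood below its partner in 8 of 8 pairs (median -2.07), the nearest to 0 being -0.37 for Cox8a and Cox8b. These counts depend on the pairing, which set Pfkm against Pfkp and left out Pfkl, also on the list. Pfkl stood at -1.41 after denervation and 3.33 in plantaris, against -0.42 and 2.08 for Pfkm. Paired with Pfkm it would go the other way in both comparisons. A second probe of Pfkl stood at -0.13 in plantaris. The aldolases, at 1.34 after denervation and -3.00 in plantaris, suit such a list least, since Aldoa is made in most tissues and Aldoc is the brain form, and a second probe of Aldoc stood at 1.40 in plantaris against -0.43 on the brightest. Without them the other form stood above its partner in 6 of 7 pairs after denervation (median 0.80) and below it in 7 of 7 in plantaris (median -1.99). In the members the same quantities were 2.40 and 2.21 after denervation and -0.94 and -1.40 in plantaris. Both comparisons share the normal soleus array. No hypothesis was tested on these values.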
